A study of Mus musculus with 8 samples.

Results

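The ligands and receptors of the VEGF and angiopoietin systems were compared between hearts that overexpress the microRNA miR-100 and WT hearts. The set was fixed by name as 10 genes, of which Vegfa, Vegfb, Vegfc, Angpt1 and Angpt2 encode ligands and Flt1, Kdr, Flt4, Tek and Tie1 encode receptors. Each of the 10 symbols matched 1 row, giving 10 of the 22206 rows of the array table, and no row was left out by a filter. RNA came from the left ventricle of 8 male C57/BL6J mice aged 8 weeks, with 4 mice carrying the cardiac-specific miR-100 overexpression (miR-100 hearts) and 4 WT mice, and both groups were untreated. The labels name neither the promoter that drives the overexpression nor the number of transgenic lines, and they do not say whether the WT mice were littermates. Each array is read as a separate mouse from the study's design, so that p-values measure the spread between these 8 samples.

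VEGF-A is a secreted growth factor made in the heart largely by muscle cells, and it acts on the endothelial cells of nearby capillaries. There it binds KDR, the main signalling receptor, and FLT1, which binds VEGF-A and VEGF-B tightly and in a soluble form acts as a decoy. VEGF-C acts mainly through FLT4 on lymphatic endothelium. The angiopoietins act on TEK, also called TIE2. ANGPT1, made by cells around the endothelium and by heart muscle cells, activates TEK and keeps vessels quiet and tight, whereas ANGPT2, stored and released by endothelial cells, opposes ANGPT1 in many settings. TIE1 binds no angiopoietin by itself and modifies TEK signalling. In bulk tissue, fewer cells of a type and less RNA per cell cannot be told apart.

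The mature strands of miR-100 and of its closest relatives are shown because the seed, bases 2 to 8 and in capitals here, is the stretch by which a microRNA finds its messenger RNAs. Sequences are those of RefSeq for build GRCm38.p6, written 5′ to 3′.
mmu-miR-100-5p: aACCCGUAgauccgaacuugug
mmu-miR-99a-5p: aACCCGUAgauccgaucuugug
mmu-miR-99b-5p: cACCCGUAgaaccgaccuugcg
mmu-miR-100-3p: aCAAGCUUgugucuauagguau
The first lies at chr9:41531437-41531458 on the plus strand, and the last is the other strand of the same hairpin, at chr9:41531471-41531492. The miR-99a strand lies at chr16:77598940-77598961 and the miR-99b strand at chr17:17830194-17830215, both on the plus strand. All 3 of the 5p strands share the seed ACCCGUA, while the 3p strand has the seed CAAGCUU. Counted from 1 at the 5′ end of miR-100-5p, miR-99a-5p differs by A16U, and miR-99b-5p by A1C, U11A, A16C and U21C. Target sites in the 10 transcripts were not searched here. The labels do not say which strand was raised, and with 0 rows named Mir100 or Mir100hg the level of the microRNA itself was not checked.

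The arrays resembled each other, with correlations from 0.988 to 0.993 over all rows. On the first principal component miR-100 replicate 2 lay at 30.8, against 8.96 to 13.5 on the other miR-100 arrays, and WT replicate 2 lay at -38.2, against -13.0 to -3.49 on the other WT arrays. Each lay apart from its group, WT replicate 2 by more. The tissue label fitted its markers, since each of 10 heart muscle genes averaged 14.03 or more on the log2 signal scale. Over all rows the median difference was -0.015 on the log2 scale (miR-100 minus WT, as everywhere below), and 31 rows, or 0.14% of the table, passed an adjusted p of 0.05 (limma with Benjamini-Hochberg adjustment over all rows).

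None of the 10 genes passed this threshold (0 of 10, against the 0.14% of all rows). Angpt1 came nearest. It was the 1 gene of the 10 with an unadjusted p under 0.05 in limma, which 7.73% of all rows had, and the 1 gene whose miR-100 and WT values did not overlap, which held for 4.54% of all rows. With 1 in 10 on either count, the set as a whole cannot be set apart from that background. Differences were above 0 for 5 genes and below 0 for the other 5, with a median of -0.01. The VEGF ligand and receptor genes had differences from -0.18 for Flt4 to 0.115 for Kdr, while both angiopoietins had lower means in miR-100 hearts.

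**Figure D1:**
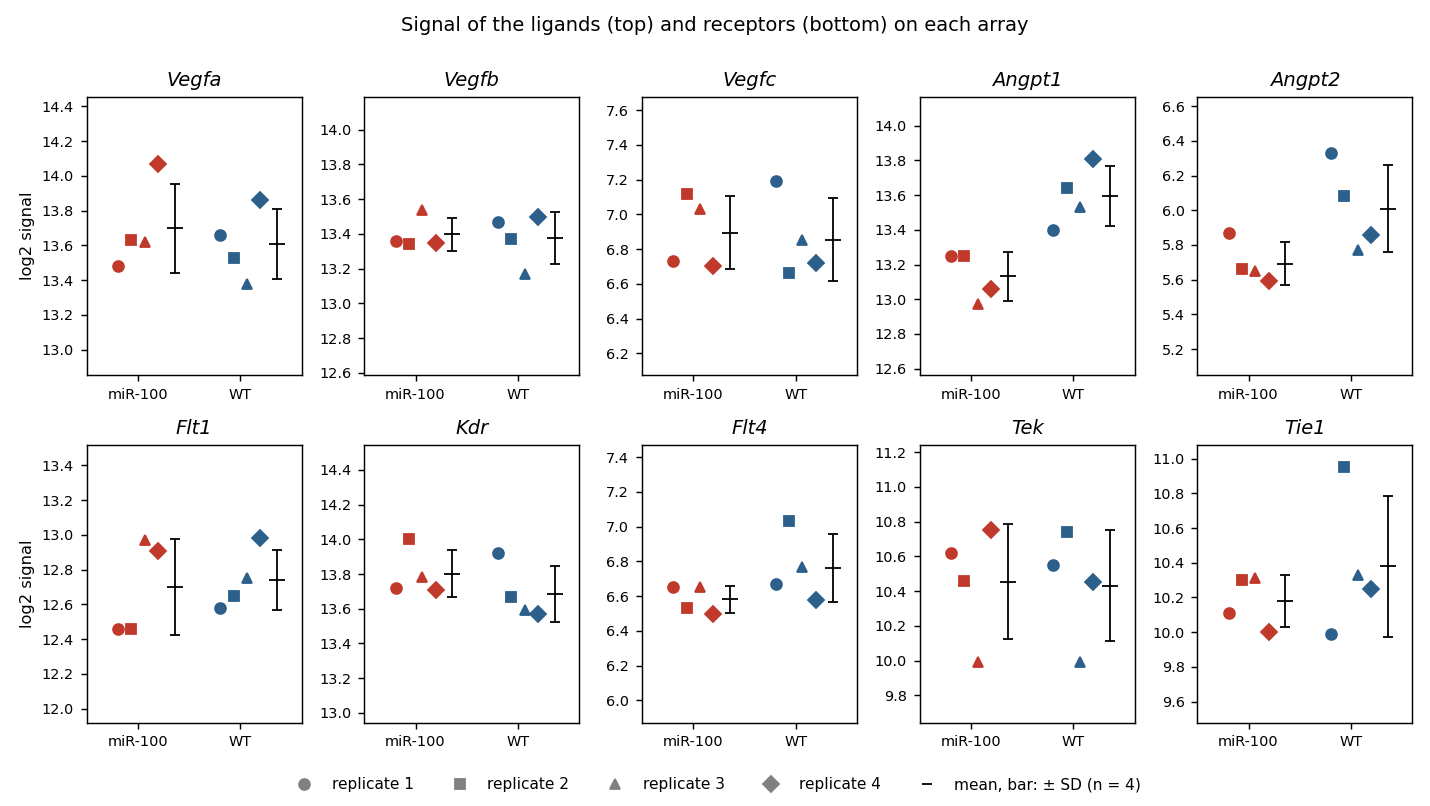
Log2 signal (vertical axes, all panels spanning the same height) of the 5 ligand genes in the top row and the 5 receptor genes in the bottom row, with miR-100 arrays left and WT arrays right in each panel. Each point is 1 array, its shape gives the replicate number, which is not known to pair mice, and the bars are mean ± SD (n = 4). The Angpt1 points of the miR-100 arrays all lie below those of the WT arrays, and in the other 9 panels the groups overlap.

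Among the VEGF ligands, Vegfa had 13.48, 13.63, 13.62 and 14.07 on the miR-100 arrays, against 13.66, 13.53, 13.38 and 13.86 on the WT arrays (log2 signal, replicates 1 to 4). The groups overlapped over most of their range, and the highest value of each group stood on its replicate 4. The difference was 0.09 (SE 0.17), with a 95% interval from -0.27 to 0.46 on the log2 scale (limma adjusted p = 0.946). Without miR-100 replicate 4 it was -0.03. The row covers 9 curated RefSeq transcripts of Vegfa, so the isoforms that differ in binding to the matrix were read as a single value.

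Vegfb, a ligand of FLT1 that is abundant in heart muscle, had 13.36, 13.34, 13.54 and 13.35 on the miR-100 arrays, against 13.47, 13.37, 13.17 and 13.50 on the WT arrays. The miR-100 values were tightly grouped apart from replicate 3, which lay above every WT value. The WT values spanned the remaining miR-100 values on both sides. The difference was 0.02 (SE 0.14), with a 95% interval from 0.822-fold to 1.25-fold. Vegfc, the ligand that drives growth of lymphatic vessels, was much dimmer, at 6.73, 7.12, 7.03 and 6.70 on the miR-100 arrays and 7.19, 6.66, 6.85 and 6.72 on the WT arrays. Its highest and its lowest value both came from WT arrays, and the difference was 0.04 (95% interval 0.802-fold to 1.32-fold). Signals of different rows depend on their probes, so they do not rank the ligands by amount.

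Of the VEGF receptors, Kdr had 13.72, 14.0, 13.78 and 13.71 on the miR-100 arrays, against 13.92, 13.67, 13.59 and 13.57 on the WT arrays. Only WT replicate 1 lay within the miR-100 range. The means were 13.80 ± 0.14 in miR-100 hearts and 13.69 ± 0.16 in WT hearts (SD, n = 4 each), a difference of 0.115 (SE 0.15) with a 95% interval from 0.871-fold to 1.35-fold and a limma adjusted p of 0.916. Kdr was the member with the highest difference, and its groups overlapped.

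Flt1 had 12.46, 12.46, 12.97 and 12.91 on the miR-100 arrays, against 12.58, 12.65, 12.75 and 12.98 on the WT arrays. The miR-100 values fell into a low and a high pair, with 3 of the WT values between them. The difference was -0.04 (SE 0.17; 95% interval 0.756-fold to 1.25-fold). The annotation of this row names 1 transcript, so the soluble decoy form was not read separately.

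Flt4, the receptor of VEGF-C, had 6.65, 6.53, 6.65 and 6.50 on the miR-100 arrays, against 6.67, 7.03, 6.77 and 6.58 on the WT arrays. All 4 miR-100 values lay below 3 of the WT values, with WT replicate 4 inside their range and WT replicate 2 well above the rest. The difference was -0.18 (SE 0.15, limma adjusted p = 0.855), and it was -0.09 without WT replicate 2. Beside it, the 10 lymphatic endothelial markers averaged 7.24 to 7.54 on the miR-100 arrays and 7.36 to 7.72 on the WT arrays (mean log2 signal per array). Of the 10, 5 had differences above 0 and 5 below, with a median of 0.015. Their part in the Flt4 values was not tested.

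The angiopoietins gave the clearest separation. Angpt1 had 13.25, 13.25, 12.97 and 13.06 on the miR-100 arrays, against 13.40, 13.64, 13.53 and 13.81 on the WT arrays. Every miR-100 value was below every WT value, by at least the distance between 13.25 and 13.40. The means were 13.13 ± 0.14 in miR-100 hearts and 13.59 ± 0.17 in WT hearts (SD, n = 4 each), a difference of -0.46 (SE 0.15), or 0.726-fold with a 95% interval from 0.582-fold to 0.905-fold. Its unadjusted limma p was 0.00790 and its adjusted p 0.388, so the difference did not pass the threshold over all rows. A two-sided exact permutation test over the 70 assignments of the arrays gave p = 0.0286, the smallest value that 4 against 4 arrays allow. This p follows from the lack of overlap, which 4.54% of all rows shared, and adds nothing to it. In 2.59% of all rows the difference was lower still.

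Leaving out each array in turn kept the Angpt1 difference between -0.53 and -0.39, with limma adjusted p from 0.413 to 0.599. The lower end came without WT replicate 1 and the upper end without WT replicate 4. Without miR-100 replicate 2 it was -0.50, and without WT replicate 2 it was -0.45. The Angpt1 row was bright, at percentile 95.8 of all row means, and so far from the dim end of the array.

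Angpt2 had 5.87, 5.66, 5.65 and 5.59 on the miR-100 arrays, against 6.33, 6.08, 5.77 and 5.86 on the WT arrays. The groups overlapped at a single point, where miR-100 replicate 1 lay above WT replicates 3 and 4. The difference was -0.32 (SE 0.16), or 0.802-fold with a 95% interval from 0.633-fold to 1.02-fold, and it did not pass (limma adjusted p = 0.683, two-sided exact permutation p = 0.0857). It depended more on single arrays than that of Angpt1, at -0.21 without WT replicate 1 and -0.40 without WT replicate 3. Angpt2 was dim, on a row at percentile 51.6 by mean signal, where background can compress differences.

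Since the 2 ligands compete for TEK, their balance was also compared. Angpt2 minus Angpt1 was -7.38, -7.59, -7.32 and -7.47 on the miR-100 arrays, against -7.07, -7.56, -7.76 and -7.95 on the WT arrays (difference of log2 signals). The WT values spread on both sides of the miR-100 values. The group difference was 0.145 (two-sided exact permutation p = 0.514), so a shift in the balance was not detectable. Its value depended on WT replicates 1 and 4, at 0.32 without replicate 1 and 0.02 without replicate 4. As the difference of log signals from separate rows, the level of this balance has no meaning of its own, and only its shift between groups does.

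**Figure D2:**
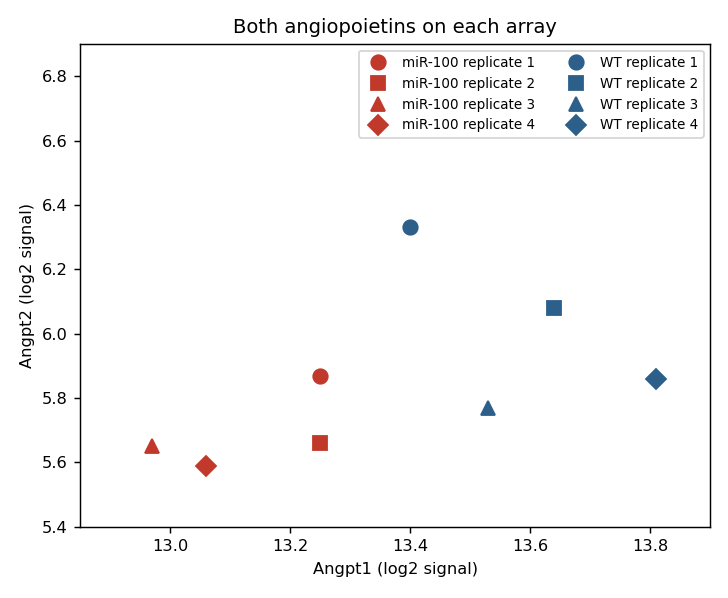
Angpt2 (vertical axis) against Angpt1 (horizontal axis), both in log2 signal, with 1 point per array, red for miR-100 and blue for WT, and shapes for replicate numbers. The miR-100 points lie at 13.25 or lower and the WT points at 13.40 or higher on the Angpt1 axis, while on the Angpt2 axis miR-100 replicate 1 (5.87) lies among the lower WT points.

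The angiopoietin receptor genes showed no such separation. Tek had 10.62, 10.46, 9.99 and 10.75 on the miR-100 arrays, against 10.55, 10.74, 9.99 and 10.45 on the WT arrays. Both groups held 1 array at 9.99, and the remaining values of both lay between 10.45 and 10.75. The difference was 0.02 (SE 0.20, 95% interval 0.752-fold to 1.37-fold, limma adjusted p = 0.990). The interval is the widest of the 10 genes, so a change of that size in either direction could have been missed.

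Tie1 had 10.11, 10.30, 10.31 and 10 on the miR-100 arrays, against 9.99, 10.95, 10.33 and 10.25 on the WT arrays. The miR-100 values were close together, and WT replicate 2 lay far above every other array. The difference was -0.20 (SE 0.19, limma adjusted p = 0.881) with all arrays and -0.01 without WT replicate 2. The mean difference of Tie1 therefore rested on that array.

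**Figure D3:**
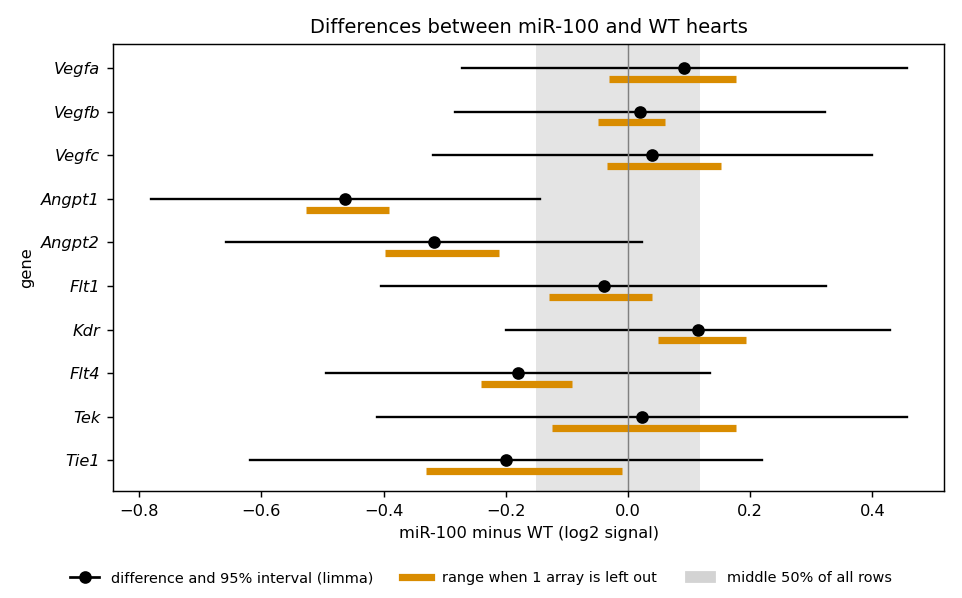
Difference between miR-100 and WT hearts (horizontal axis, miR-100 minus WT in log2 signal) for each of the 10 genes (vertical axis), as point and 95% interval from limma, with an orange bar for the range of the 8 fits that left out 1 array. The grey band holds the middle 50% of all rows, from -0.15 to 0.12. The interval of Angpt1 lies below 0, the other 9 cross it, and the orange bars of Vegfa, Vegfb, Vegfc, Flt1 and Tek lie on both sides of 0.

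Endothelial markers were set beside the receptors, most of which are endothelial genes. Of 25 measured markers 17 had differences below 0, with a median of -0.085, against 53.1% of all rows below 0 and a median of -0.015. None passed the adjusted threshold (0 of 25). At an unadjusted p under 0.05 in limma, which 7.73% of all rows had, 2 were higher and 3 lower. Tmem100, a membrane protein of endothelial cells, had the lowest p of the list and differed by -1.375 (SE 0.39, limma adjusted p = 0.316). Its groups overlapped, and the difference ran from -1.67 to -0.96 when 1 array was left out. The 2 higher markers, named after their values were seen, were Cldn5 at 0.55 and Plvap at 0.57 (limma adjusted p = 0.379 and 0.404). The mean log2 signal of the markers ran from 9.32 to 9.61 on the miR-100 arrays and from 9.46 to 9.71 on the WT arrays. With this mean as a covariate in the fit over all rows, Angpt1 differed by -0.44 (limma adjusted p = 0.521) and Angpt2 by -0.33 (0.683), close to the values without it. Tek then differed by -0.18 (0.859) and Flt1 by 0.003 (0.999), so the sign of both depended on this choice.

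ANGPT1 is made by cells around the endothelium and by heart muscle cells, for which the endothelial covariate does not stand. The part of these cells in the Angpt1 values was not tested. Of 14 pericyte and smooth muscle markers 7 had differences above 0 and 7 below, with mean log2 signals of 9.74 to 9.99 on the miR-100 arrays and 9.73 to 9.91 on the WT arrays. Acta2, the smooth muscle actin, had the lowest p of that list, at 13.84 ± 0.71 in miR-100 hearts and 12.72 ± 0.10 in WT hearts (SD, n = 4 each; limma adjusted p = 0.203). At an unadjusted p under 0.05 in limma, which 7.73% of all rows had, 1 marker, Acta2, was higher and 1 was lower. That was Kcnj8, a potassium channel gene of pericytes named after its values were seen, at 9.10, 9.24, 9.15 and 8.99 on the miR-100 arrays and 9.43, 9.42, 9.54 and 9.34 on the WT arrays. Its groups did not overlap, as for Angpt1 and, in the other direction, Acta2. Lack of overlap held for 4.54% of all rows, and Kcnj8 did not pass (limma adjusted p = 0.609). The other markers of the list followed neither gene closely, with differences from -0.19 for Tagln to 0.23 for Des. The 10 heart muscle markers averaged 18.29 to 18.38 on the miR-100 arrays and 18.18 to 18.28 on the WT arrays. Without the natriuretic peptide gene Nppa, which differed by 1.04 (limma adjusted p = 0.0616), the other 9 ran from 18.30 to 18.37 in both groups. Among these 9, Mb and Pln each had an identical value on every miR-100 array, which for Mb was the highest signal of all rows. Rows so near the top of the scale could hide a difference, so these ranges do not show equal amounts of heart muscle RNA. Fibroblast markers (9 measured) had 4 differences above 0 and 5 below, with a median of -0.095, and the lowest p belonged to Col1a2, at -0.37. Macrophage markers (9 measured) had 6 above 0 and 3 below, with a median of 0.025, and the lowest p belonged to Lyz2, at 0.24. No member of these lists or of the lymphatic list passed, and Lyve1, a receptor for hyaluronan on lymphatic endothelium, had the lowest p of the lymphatic list at -0.63 (limma adjusted p = 0.469).

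Relatives and coreceptors of the family were read as a list of 17 measured genes, of which 0 passed in either direction. At an unadjusted p under 0.05 in limma 1 was higher and 2 lower, against 7.73% of all rows. The median difference was 0.04. Pdgfc, a platelet-derived growth factor related to the VEGFs, had the lowest p, with 4.75, 4.91, 5.14 and 4.65 on the miR-100 arrays and 5.84, 5.18, 5.81 and 5.72 on the WT arrays. Its groups did not overlap, though miR-100 replicate 3 and WT replicate 2 almost met, and the difference was -0.775 (SE 0.18, limma adjusted p = 0.176). Itga5, the fibronectin receptor subunit, differed by 0.35 in the other direction, also without overlap (limma adjusted p = 0.549). Lack of overlap held for 4.54% of all rows. Ptprb, the endothelial phosphatase that removes phosphate from TEK and KDR, is named after its values were seen. It had 11.43, 11.56, 11.69 and 11.48 on the miR-100 arrays and 11.77, 11.92, 11.77 and 11.96 on the WT arrays, without overlap, a difference of -0.315 (SE 0.14) that did not pass (limma adjusted p = 0.611).

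The 26 measured genes of VEGF receptor signalling and 14 of TIE receptor signalling had median differences of 0.02 and 0.06, and 0 of either list passed. These values come from the whole left ventricle, not from endothelial cells alone. At an unadjusted p under 0.05 in limma, which 7.73% of all rows had, 2 of the first and 1 of the second list were higher and 0 lower. Rcan1, an inhibitor of calcineurin that VEGF-A induces in endothelium and that heart muscle also expresses, had 10.94 ± 0.30 in miR-100 hearts and 10.36 ± 0.30 in WT hearts (SD, n = 4 each; difference 0.58, limma adjusted p = 0.405). The adaptor gene Sh2d2a differed by 0.395 on a dim row at percentile 16.5. In the TIE list the kinase gene Bmx, whose unadjusted limma p was above 0.05, differed by 0.33 (limma adjusted p = 0.683).

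Genes of vessel sprouting and NOTCH, through which VEGF-A selects tip cells, had a median difference of -0.045 over 21 measured genes, and 0 passed. Esm1, a secreted proteoglycan of tip cells, had 3.93, 4.15, 4.12 and 3.74 on the miR-100 arrays, against 4.51, 4.51, 4.37 and 4.47 on the WT arrays. Its groups did not overlap, and the difference was -0.48 (SE 0.14, limma adjusted p = 0.345), on a row at percentile 26.4, where signals lie close to background. The transcription factor gene Ets1 differed by 0.335.

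The hypoxia response, to which Vegfa belongs as a target of the HIF factors, had a median difference of 0.02 over 24 measured genes. None passed (0 in limma, with 3 higher and 1 lower at an unadjusted p under 0.05, against 7.73% of all rows). The histone demethylase gene Kdm3a had 6.50 ± 0.22 in miR-100 hearts and 5.98 ± 0.15 in WT hearts (SD, n = 4 each; difference 0.53, limma adjusted p = 0.337). Ddit4, an inhibitor of mTOR, differed by -0.96 (SE 0.35, limma adjusted p = 0.467), and its WT values were split, with replicates 3 and 4 at 8.88 and 9.10 and replicates 1 and 2 at 7.58 and 7.31.

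Of 24 measured angiogenic factors and inhibitors from other families, 1 passed as higher and 0 as lower, against 0.14% of all rows. The list was chosen with earlier results of these data known, so this count is no result about the list. At an unadjusted p under 0.05 in limma 3 were higher and 3 lower, against 7.73% of all rows. Differences were above 0 for 10 genes and below 0 for 14. Ndnf, a secreted factor described as promoting survival of neurons and endothelial cells, was the 1 that passed, with 9.10, 9.0, 9.60 and 9.01 on the miR-100 arrays and 6.23, 6.78, 5.91 and 6.79 on the WT arrays (limma adjusted p = 0.000108). The list's median difference was -0.04.

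**Figure D4:**
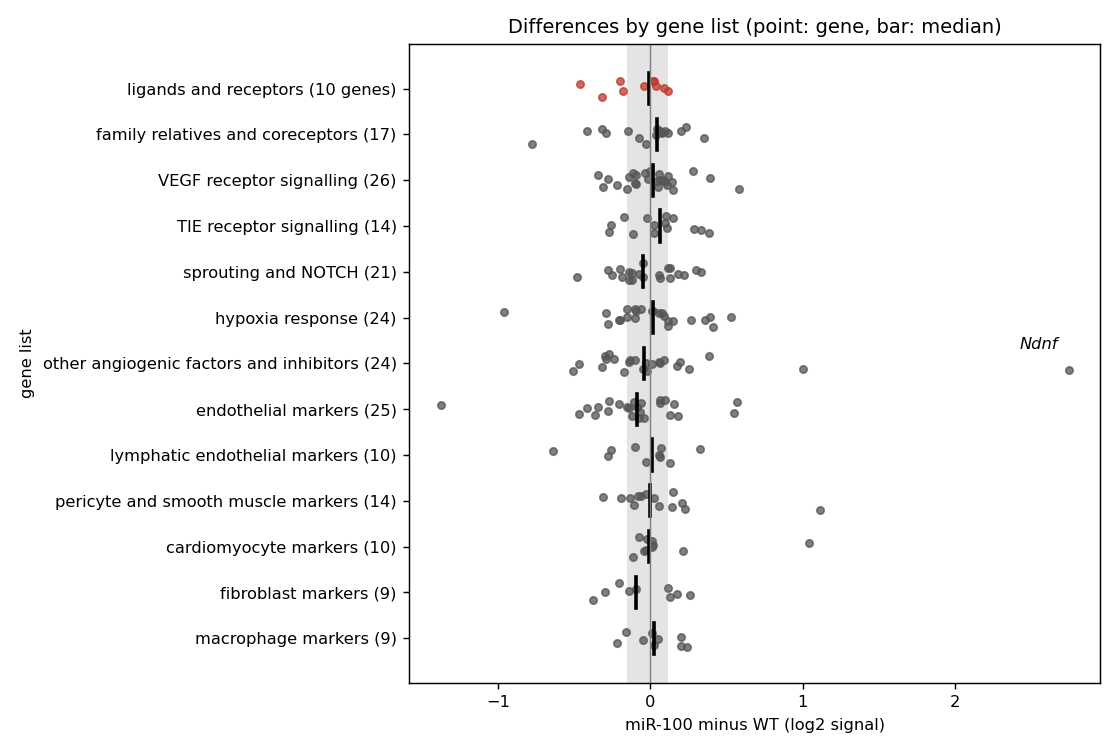
Difference between miR-100 and WT hearts (horizontal axis, miR-100 minus WT in log2 signal) for every measured gene of each list (vertical axis, number of genes in parentheses), with the 10 ligand and receptor genes in red at the top. Points are genes, black bars are medians, vertical scatter has no meaning, and the grey band holds the middle 50% of all rows. The medians lie between -0.095 (fibroblast markers) and 0.06, and Ndnf, at 2.75, lies far from the other genes.

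For each of the 10 genes the 3 named rows with the most similar course over the 8 arrays were found by Pearson's r among 18575 rows, as a description. Over all 3 matches r ran from 0.934 to 0.989, and over the best match of each gene from 0.945 to 0.989. The best match of a typical named row had an r of 0.970 (5th to 95th percentile 0.948 to 0.987), so high r are usual with 8 arrays. The best matches of Angpt1 and Vegfa lay slightly above that range, and that of Flt1 slightly below. For Angpt1 the 3 matches were Klk11 (0.989), Fndc3c1 and Klhl34, with differences of -0.295, -0.60 and -0.645 that did not pass. Vegfa was most like Mapk9 (0.988), Grb14 and Coq5, of which Grb14, an adaptor that binds TEK, also stands in the TIE list. Angpt2 was closest to Galnt17, Fndc7 and Lmod1, Tek to Pigw, Parg and Cd274, and Tie1 to Rit2, Mhrt and Tmem39a. Kdr had Vmn1r219, Kif19a and Arhgap18, Flt1 had Olfr469, Ptx4 and Vmn2r95, and Flt4 had Sdk1, Tnfsf4 and Kif4-ps. The matches of Vegfb were B3gnt6, Abca9 and Map6d1, and those of Vegfc were Fbp1, Tekt2 and Calcoco2.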

How the data were processed

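Left ventricular RNA of 8 mice was measured on 1 Affymetrix array each, after TriPure extraction and WT Plus labelling with biotin, per the labels' protocols. The authors deposited 1 log2 signal for each transcript cluster (a set of probes for a transcribed region). The submitters' processing notes name Transcriptome Analysis Console 4.0, and how it normalized the arrays, and against which build, is not given in the sources used here. Array medians ran from 5.70 to 5.74, and values from 2.29 to 19.93. On arrays there is no read depth, and their number limits the precision. The platform annotation gave 1 symbol for 19572 rows, several for 0 and none for 2634.

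All 22206 rows were fitted unfiltered with limma 3.58.1 in R 4.3.3 (lmFit, eBayes, no covariates). Adjusted p-values are Benjamini-Hochberg over all rows at 0.05, and differences are miR-100 minus WT. Single values were compared by two-sided exact permutation over 70 assignments in Python 3.11.15. The fit was first tested on simulated data with known changes.

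The genes and the 12 lists were chosen with earlier results of these data known. The text names the 10 genes, up to 2 genes past the threshold per pathway list and direction or else the 2 with the lowest p, the marker with the lowest p per marker list, and the 3 rows most like each gene. Of these, the TIE gene with the lowest p is not reported here. A list gene is read from its brightest row. Alternatives were other moderation, array weights, normalization, filters, an endothelial covariate, a replicate block and leaving out each array.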

Additional observations from a re-analysis of the deposited data

Results flagged for a closer look

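The gap between the highest or lowest array and its nearest neighbour was set against the range of the group for the 10 genes and the angiopoietin balance, which made 22 groups of 4 arrays. In 1 of them, Vegfb in miR-100 hearts, it passed Dixon's 95% critical value. Vegfb was 13.54 on miR-100 replicate 3, while the other 3 miR-100 arrays lay between 13.34 and 13.36, so the gap took 0.900 of the range. Chance flags about 1 in 20 groups. Without that array the Vegfb difference was -0.03 in place of 0.02.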

How the results depend on the processing

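In all 18 alternative fits and at an adjusted p of 0.1, 0 of the 10 genes passed (limma). The lowest adjusted p of any of them was 0.181, for Angpt1 with an intensity trend. Rows past the threshold numbered 31 in all, 65 at an adjusted p of 0.1, 65 with an intensity trend, 20 with the endothelial covariate and 11 to 27 when 1 array was left out, with 11 without miR-100 replicate 3 or 4. The cause was not tested. With the replicate number as a block there were 21 rows and 0 of the genes. The labels do not say whether the numbers pair the mice. Deviations of same-numbered arrays correlated between -0.060 and 0.066, which cannot exclude a pairing. For miR-100 replicates 1 and 3 the same-numbered WT array was the best match, and for replicates 2 and 4 it was not. The block left the angiopoietin balance at 0.145 (exact sign-flip p = 0.50, where 0.125 is the smallest possible). Of 100 values of single genes under alternatives that kept all arrays, 98 kept their direction. Many of these could not turn, since other moderation, row filters and the replicate block leave the difference itself unchanged. The 98 are therefore no measure of stability. Flt1 (0.0032) and Tek (-0.18) turned with the endothelial covariate. When 1 array was left out, Vegfa ran from -0.031 to 0.18, Vegfb from -0.049 to 0.061, Vegfc from -0.035 to 0.15, Flt1 from -0.13 to 0.04 and Tek from -0.125 to 0.18, so these have no settled direction. Kdr (0.05 to 0.19), Flt4 (-0.24 to -0.09), Angpt1 (-0.53 to -0.39), Angpt2 (-0.40 to -0.21), Tie1 (-0.33 to -0.01) and the balance (0.02 to 0.32) kept theirs. A count of 0 with 4 arrays a group does not show that these genes were unaffected. Dim rows such as Angpt2, Flt4 and Vegfc lie nearer to background than the others.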
